A study of Mus musculus with 6 samples.

Results

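The genes examined encode the subunits of heterotrimeric G proteins (Gna, Gnb and Gng genes, for the alpha, beta and gamma subunits) and the RGS proteins (Rgs genes), chosen by symbol from the deposited count table. They number 53 of 23478 genes: 16 Gα, 5 Gβ, 12 Gγ and 20 RGS genes. RNA was sequenced from sorted cells of the mouse trachea at embryonic day 13.5 (E13.5), with 3 libraries of muscle cells and 3 of epithelial cells. All 6 libraries come from control animals with floxed Bmp4 alleles (Bmp4 f/f) that also carry gamma SMA eGFP, a green fluorescent reporter of smooth muscle, and the labels name no Cre. GFP marked the muscle cells in the sort, and an antibody to Epcam marked the epithelial ones. The labels do not say whether a library holds 1 embryo or a pool, so the p-values measure the spread between these libraries, which may be partly technical.

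A heterotrimeric G protein relays the signal of a receptor in the plasma membrane. The activated receptor makes the α subunit exchange GDP for GTP, and the α subunit and the βγ dimer then act on separate effectors. RGS proteins shorten the signal by speeding up GTP hydrolysis on the α subunit. In airway smooth muscle, acetylcholine and histamine receptors act through Gq to raise calcium and contract the cell, Gs raises cAMP and relaxes it, and Gi opposes Gs.

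The genes that passed the test between muscle and epithelium encode β and γ subunits and RGS proteins. None of the 16 Gα genes passed, against 10.7% of all genes tested, a difference of few genes in a family of this size. Higher in muscle were 1 of 5 Gβ genes (Gnb4), 5 of 12 Gγ genes (Gng2, Gng8, Gng10, Gng11 and Gng12) and 5 of 7 tested genes of the R4 subfamily of RGS genes (Rgs2, Rgs3, Rgs4, Rgs5 and Rgs16). The 1 gene higher in epithelium was Rgs11 of the R7 subfamily. The folds ranged from 2.12-fold for Gng10 to 24.3-fold for Rgs5 toward muscle, and Rgs11 was 10.8-fold higher in epithelium. In all 12 genes the lowest library of the higher group lay above the highest library of the other. These genes were chosen by a test on the same libraries, so this separation is no further evidence. Each library is a bulk sample, in which fewer cells of a type and less RNA per cell cannot be told apart.

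Of the 53 genes 51 passed the filter on low counts and were tested, and 12 of the 51 (23.5%) passed edgeR's quasi-likelihood test at a threshold of 0.05 on the adjusted p, against 10.7% of all 19375 genes tested. Toward muscle the background was 6.58% and toward epithelium 4.11%. Genes of low expression seldom pass. Of the 37 members with an average log2 CPM (CPM, a gene's counts relative to the scaled library total) of at least 2, the 12 made up 32.4%, against 16.2% of all such genes (10% toward muscle and 6.22% toward epithelium). The groups did not overlap in 25 of the 51 tested members (49.0%) and in 26.9% of all tested genes. The median log2 fold change (muscle over epithelium) was 0.44 over the tested members and -0.10 over all tested genes. Scaling by library size only moved the latter to -0.33 and the share of all calls that were higher in muscle from 61.5% to 42.0%. Under that scaling the members split into 10 toward muscle and 2 toward epithelium, in place of 11 and 1. Without epithelium replicate 3, 7 were higher in muscle.

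**Figure D1:**
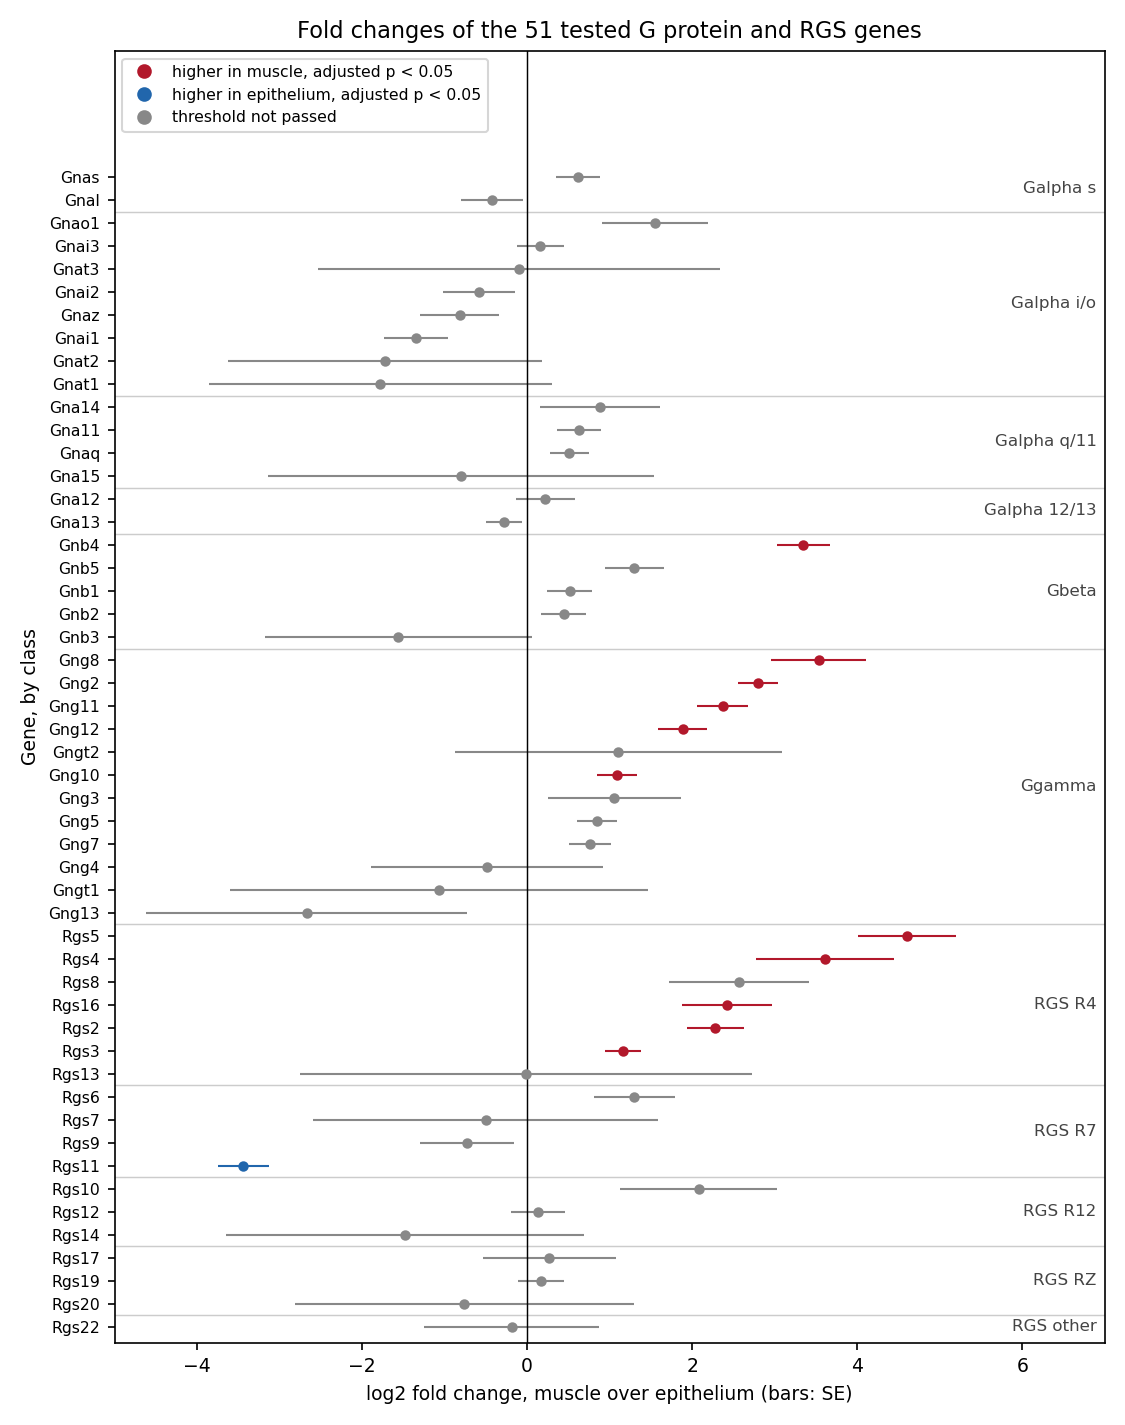
Log2 fold change of muscle over epithelium for the 51 tested genes, ordered by class; points are fitted values and bars are standard errors, with red for genes higher in muscle, blue for the gene higher in epithelium and grey for genes that did not pass. The Gα genes are all grey, 5 Gγ and 5 R4 genes lie to the right, and Rgs11 lies at -3.44.

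Total counts ranged from 11847432 to 54848820 per library. Summed over 6 smooth muscle markers, CPM ranged from 3790 to 16400 in muscle and from 26.1 to 79.1 in epithelium, and 7 epithelial markers ranged from 11.97 to 24.6 in muscle and from 2962 to 4319 in epithelium. Summed over 5 cartilage markers, CPM ranged from 652 to 1129 in muscle and from 219 to 462 in epithelium. Of these Col9a1 (log2 fold change 3.23, adjusted p = 0.0113, edgeR) and Sox9 (2.01, adjusted p = 0.0262) were called higher in muscle. The groups of Col2a1, Acan and Matn1 overlapped. Muscle replicate 1 also held 353 CPM of 6 skeletal muscle markers, most of it Myog (245 CPM) and Myod1 (62.1 CPM), against 24.1 and 33.3 CPM in the other muscle libraries. Muscle replicate 2 and epithelium replicates 2 and 3 carried 755, 1388 and 582 CPM over 1428 olfactory and vomeronasal receptor genes, which belong to sensory neurons, against 5.30 to 41.1 in the other 3 libraries. Such counts, called background counts here, amounted to up to 0.97 CPM per receptor gene in a library. Without these 3 libraries, a choice made after the data were seen, 12 members were higher in muscle and 1 in epithelium. That fit had 1 epithelial library, which was assumed to vary like the muscle libraries.

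Gα subunits bind GTP and set which effector a receptor reaches. Of the 16 Gα genes 12 had counts in every library, and Gna15, Gnat1, Gnat2 and Gnat3 had none in at least 1 library. Of 16 Gα genes tested with edgeR, 4 had an unadjusted p under 0.05, against 4195 of all 19375 genes tested, and none passed after adjustment. The groups did not overlap in 6 of the 16 (37.5%, against 26.9% of all tested genes). DESeq2 called 1 Gα gene (Gnai1, higher in epithelium) and limma-voom another (Gnao1, higher in muscle). Levels are compared between genes as CPM per kilobase of exon sequence. On that scale Gnai3 (in muscle 115 ± 29.9, in epithelium 103 ± 22.2, SD, n = 3) and Gnai2 (99.2 ± 65.2 and 148 ± 36.98) had the highest levels of the Gα genes, and their libraries overlapped in either population. Both encode inhibitory α subunits that lower cAMP. In muscle Gna11 followed (40.3 ± 10.4), and its libraries overlapped those of Gna14, as did the libraries of Gna14 and Gnaq and of Gnaq and Gnas. In epithelium Gnai3, Gna11, Gnaq and Gnas followed one another without overlap, at 26.03 ± 3.74 for Gna11, 18.5 ± 0.521 for Gnaq and 15.6 ± 1.41 for Gnas. The length used for Gnas, 10376 bases, joins the exons of several transcripts, of which the longest has 3947. The place of Gnas in either order therefore depends on the length used.

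The 8 genes of the Gi/o class had a median log2 fold change of -0.70. Gnai1, the third inhibitory α subunit, had 14.4, 7.14 and 19.7 CPM in muscle replicates 1 to 3 and, in the same order, 30.1, 46.7 and 28.1 CPM in epithelium. Every epithelial library lay above every muscle library. The log2 fold change was -1.34 ± 0.39 (SE), with an adjusted p of 0.0621 in edgeR, short of the threshold. It passed in 7 of 17 alternative analyses, among them the fit without muscle replicate 3 (adjusted p = 0.0393), with adjusted p from 0.00823 to 0.154. Gnai2 spread widely in muscle, with 124 CPM in replicate 1, 160.3 in replicate 2 and 400 in replicate 3, and its groups overlapped (log2 fold change -0.58 ± 0.43, adjusted p = 0.594). Its lowest value was in the library with the skeletal muscle markers, whose part in the result was not tested. For Gnai3 the log2 fold change was small, 0.16 ± 0.29 (adjusted p = 0.907), and its sign changed with the scaling (log2 fold change -0.12 with library size only).

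Gnao1, the α subunit most abundant in neurons, had 7.37, 12.4 and 12.9 CPM in the muscle libraries and 1.34, 3.81 and 6.01 in the epithelial ones. All muscle libraries were above all epithelial ones, at a log2 fold change of 1.55 ± 0.64 that did not reach the threshold in edgeR (adjusted p = 0.194, with a range of 0.0297 to 0.569 in the alternatives, of which 3 of 17 passed). Summed over 8 neural and glial markers the range was 34.0 to 76.4 CPM in muscle and 34.9 to 91.4 in epithelium, and these ranges overlapped. Of these markers Stmn2 was above epithelium in every muscle library (log2 fold change 1.53) and Ret was below it in every one (-2.53). Neither passed in edgeR, and the groups of the other neural and glial markers overlapped. The part of neural cells in the level of Gnao1 was not tested. Gnaz, a Gi relative that is slow to hydrolyse GTP, averaged 8.99 ± 6.21 CPM in muscle and 15.9 ± 3.04 in epithelium, with overlapping groups (log2 fold change -0.82 ± 0.48, adjusted p = 0.423).

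Among the Gq/11 genes, whose products activate phospholipase C, Gnaq had 161, 116 and 168 CPM in muscle and 106, 101 and 106 in epithelium. Gna11 had 133, 104 and 175 CPM and 103, 78.7 and 84.7 CPM. In both genes every muscle library lay above every epithelial one. The differences were small, with log2 fold changes of 0.51 ± 0.23 for Gnaq (adjusted p = 0.255) and 0.63 ± 0.26 for Gna11 (adjusted p = 0.199), and neither passed in edgeR. In the alternatives Gnaq passed in 1 of 17, the fit without the libraries numbered 2 (adjusted p = 0.0489), and Gna11 in none (adjusted p of at least 0.0681). Gna14 varied within both groups, with 157, 22.6 and 94.4 CPM in muscle replicates 1 to 3 and 13.7, 76.1 and 59.3 CPM in epithelium replicates 1 to 3. The groups overlapped (log2 fold change 0.88 ± 0.72, adjusted p = 0.658). Its highest value was in muscle replicate 1, the library with the skeletal muscle markers, and its lowest in epithelium replicate 1. Without the 3 libraries with background counts its log2 fold change was 3.02 (adjusted p = 0.0052). Gna15, the Gq relative of blood cells, had at most 2.87 CPM in a library and no counts in muscle replicates 1 and 3.

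Gnas, the stimulatory α subunit that activates adenylyl cyclase, had 194, 219 and 330.0 CPM in muscle and 178, 152 and 154 in epithelium. Muscle lay above epithelium in every library, but the fold change, 0.62 ± 0.27 in log2, failed the test (adjusted p = 0.218, edgeR). The locus holds several imprinted transcripts, and the antisense genes Nespas and Gm20721 overlap 9.52% and 14.2% of its exon bases, so the value may include their reads. Gnal, the other gene of the Gs class, had 10.2 to 22.7 CPM over the 6 libraries. The 2 genes of the G12/13 class differed little. Gna12 averaged 10.7 ± 1.44 CPM in muscle and 9.18 ± 0.474 in epithelium (log2 fold change 0.22 ± 0.35, adjusted p = 0.893), with a sign that changed with library size only (-0.00548). Gna13 had 50.98 ± 6.69 and 61.9 ± 2.59 CPM (log2 fold change -0.28 ± 0.22, adjusted p = 0.616).

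Shares within a family do not depend on how libraries are scaled. Of the summed Gα level per kilobase, the Gi/o genes took 58.2%, 63.9% and 66.9% in the muscle replicates, in order, and 78.6%, 70.3% and 76.0% in the epithelial ones. The Gq/11 genes made up 32.9%, 23.3% and 23.4% in muscle and 13.6%, 20.5% and 16.5% in epithelium. Gnas and Gnal together, the Gs class, made up 7.18% ± 1.55 (SD, n = 3) in muscle and 4.73% ± 0.530 in epithelium. In these libraries the Gi/o share was thus higher in each epithelial library and the Gq/11 and Gs shares were higher in each muscle library, while the shares of G12/13 overlapped. The sizes of these shares depend on the exon lengths used. Gnas was divided by 10376 bases and Gnal by 11170, while their longest transcripts have 3947 and 5736. No other length was tried for the class shares, which were described and not tested.

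**Figure D2:**
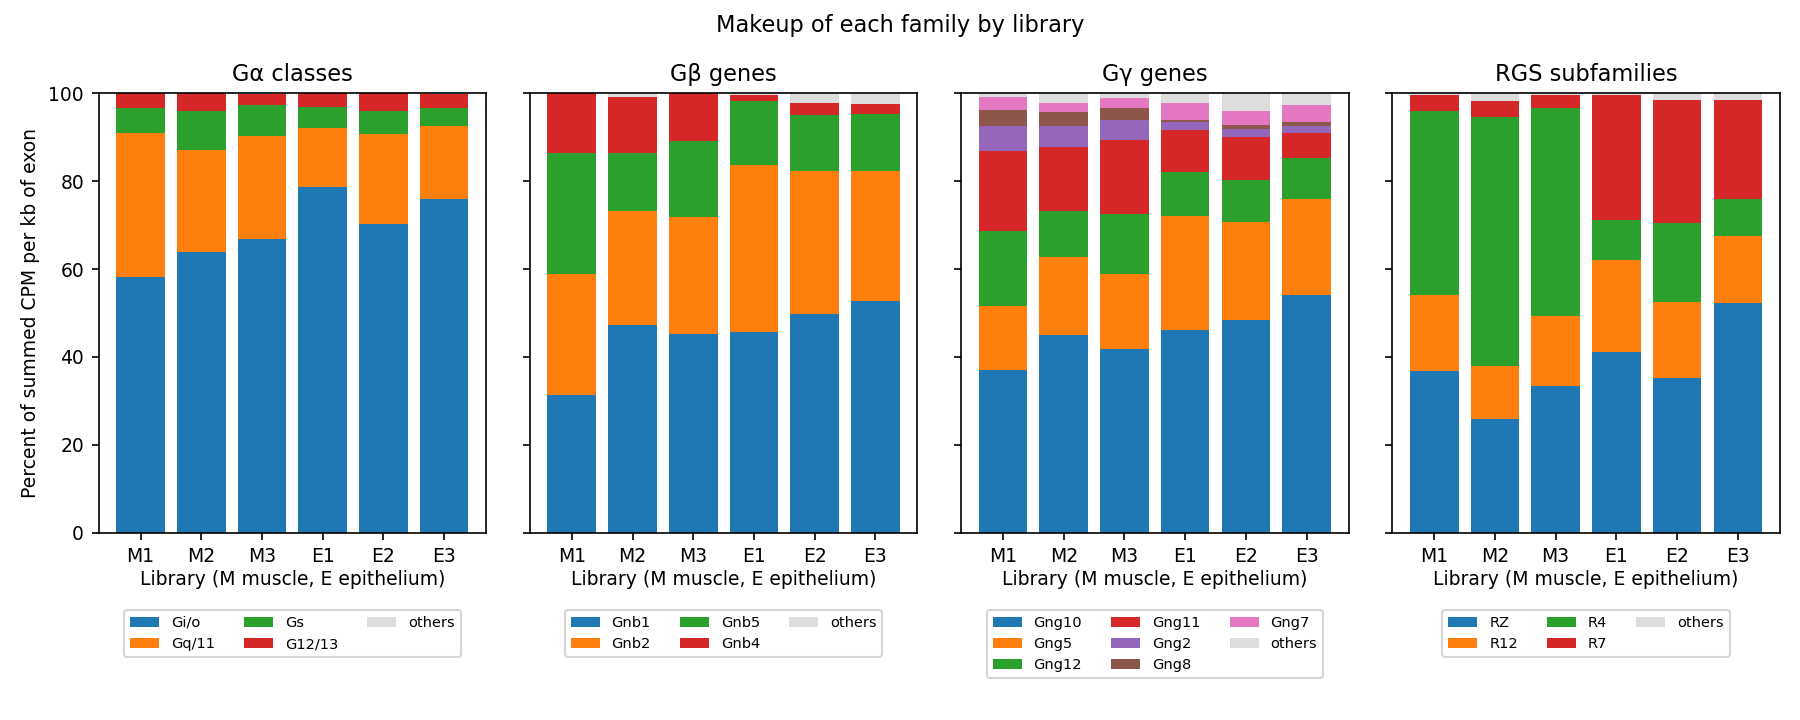
Percent of the summed CPM per kilobase of exon in each of the 6 libraries (M1 to M3 muscle, E1 to E3 epithelium) for Gα classes, Gβ genes, Gγ genes and RGS subfamilies; grey is the rest of each family. The R4 part of the RGS genes spans 41.9% to 56.8% in muscle and 8.53% to 17.9% in epithelium, and Gnb4 spans 10.9% to 13.6% and 1.30% to 2.65% of the Gβ genes.

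Gβ subunits form an obligate dimer with a Gγ subunit. Gnb4 had 117, 82.8 and 117 CPM in muscle replicates 1 to 3 and, in the same order, 6.93, 13.5 and 10.9 CPM in epithelium. Each muscle library exceeded each epithelial library by a wide margin. The difference in log2 was 3.34 ± 0.32 (SE, with an adjusted p of 0.000495 in edgeR), a 10.1-fold difference, and it passed in all 17 alternative analyses. Gnb4 was a minor part of the Gβ genes, at 12.4% ± 1.38 (SD, n = 3) of the summed Gβ level per kilobase in muscle and 2.09% ± 0.707 in epithelium. Without division by length its share was 24.3% in muscle and 4.56% in epithelium.

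Gnb1 and Gnb2, the widely expressed Gβ genes, had the highest mean levels per kilobase in both populations. Gnb1 had 136, 155 and 245 CPM in muscle and 123, 127 and 125 in epithelium, without overlap but short of the threshold (log2 fold change 0.51 ± 0.27, adjusted p = 0.345, edgeR). Gnb2 averaged 90.8 ± 22.9 and 66.9 ± 12.5 CPM (log2 fold change 0.44 ± 0.27, adjusted p = 0.45), and its groups overlapped. Gnb5, which pairs with the R7 subfamily of RGS proteins in place of a Gγ subunit, had 88.5, 31.95 and 69.2 CPM in muscle and 29.5, 24.6 and 22.9 CPM in epithelium. All muscle libraries were above the epithelial ones, and the log2 fold change, 1.30 ± 0.36, stayed just short of the threshold (adjusted p = 0.0519). Muscle replicate 2 was the lowest muscle library, and without it Gnb5 passed (adjusted p = 0.00271, the lowest of a range up to 0.216 in the alternatives, of which 7 of 17 passed). Gnb3, known from photoreceptor and taste cells, had at most 3.27 CPM.

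The Gγ genes showed the most calls of the G protein families. Gγ subunits carry the lipid anchor that holds the dimer at the membrane. Of 12 Gγ genes tested 5 passed toward muscle (41.7%, against 6.58% of all tested genes) and none toward epithelium (against 4.11%). The median log2 fold change of the 12 was 1.07, against -0.10 over all tested genes. The summed level of the 12 genes was 396 ± 73.3 CPM per kilobase (SD, n = 3) in muscle and 155 ± 4.78 in epithelium, while that of the 16 Gα genes was 354 ± 105 and 360 ± 39.99.

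Gng2 had 97.4, 68.8 and 95.2 CPM in muscle replicates 1 to 3 and, in the same order, 12.4, 13.1 and 12.02 CPM in epithelium. The epithelial libraries were close together, and all muscle libraries were several times higher. In log2 the fold change came to 2.80 ± 0.24 (SE; adjusted p = 0.000368 by edgeR), and it passed in all 17 alternatives. The antisense gene Gm48283 overlaps 20.4% of its exon bases, and reads of both genes cannot be separated. Gng8, best known from olfactory and vomeronasal neurons, had 14.4, 10.6 and 12.5 CPM in muscle and 0.706, 1.34 and 1.20 in epithelium (log2 fold change 3.54 ± 0.58, adjusted p = 0.00494). Among muscle libraries Gng8 was highest in replicate 1, which had few background counts, and among epithelial libraries it was lowest in replicate 1, which had the fewest. Without the 3 libraries with background counts its log2 fold change was 4.06 (adjusted p = 0.00947). It too passed in all 17 alternatives, most narrowly without muscle replicate 1 (adjusted p = 0.0486).

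Gng11, a farnesylated γ subunit, had 63.2, 44.9 and 73.8 CPM in muscle and 13.2, 13.7 and 8.34 in epithelium. Gng12 had 311, 163 and 310.1 CPM in muscle and 71.1, 69.5 and 72.00 in epithelium. In both the groups were far apart, with muscle replicate 2 the lowest muscle library. The log2 fold changes were 2.37 ± 0.30 for Gng11 (adjusted p = 0.00161) and 1.88 ± 0.30 for Gng12 (adjusted p = 0.0042), and both genes passed in all 17 alternatives. Muscle replicate 2 also had the lowest sum of smooth muscle markers, 3790 CPM. Gng11 and Gng2 are also expressed by endothelium, and 7 endothelial markers summed to 46.8 to 71.1 CPM in muscle and 13.5 to 61.9 CPM in epithelium, with none of them called. Of these Tek was above epithelium in every muscle library, with 34.6, 26.6 and 32.9 CPM in muscle and 0.725, 15.3 and 4.77 in epithelium. It did not pass (log2 fold change 2.20, adjusted p = 0.149, edgeR), and the groups of the other endothelial markers overlapped. The part of endothelium in both genes was not tested.

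Gng10 had 169, 179 and 237 CPM in muscle and 83.5, 88.8 and 104 in epithelium (log2 fold change 1.08 ± 0.24, adjusted p = 0.0209, edgeR). On the scale per kilobase it had the highest mean level of the Gγ genes in both populations, 164 ± 31.1 in muscle and 77.1 ± 8.74 in epithelium, and its libraries did not overlap those of the next gene in either. Its call was lost without muscle replicate 3 (adjusted p = 0.108), epithelium replicate 1 (0.0913) or epithelium replicate 3 (0.0823). The GENCODE annotation has a further gene, Gm20503, on the same strand over 79.4% of its exon bases, so the value is uncertain: reads of Gng10 and of that gene are hard to tell apart.

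Gng5 had 152, 163 and 224 CPM in muscle and 109.5, 94.03 and 97.01 CPM in epithelium. Gng7 had 41.1, 25.7 and 40.4 and 21.8, 18.8 and 22.6 CPM. Neither gene's groups overlapped, and neither passed in edgeR, at log2 fold changes of 0.84 ± 0.24 (adjusted p = 0.0606) and 0.76 ± 0.26 (adjusted p = 0.11). Gng5 passed in 6 of 17 alternatives, among them DESeq2 (adjusted p = 0.00332) and the fit without muscle replicate 2 (0.0445), with a range up to 0.304. Gng7 passed in 1 of 17, without muscle replicate 2 (adjusted p = 0.0361, with a range up to 0.355). The 5 Gγ genes higher in muscle made up 82.0%, 78.1% and 79.6% of the summed Gγ level per kilobase in the muscle replicates, in order, and 67.9%, 70.6% and 71.6% in the epithelial ones. These 5 genes were chosen by a test on the same libraries, so their higher share in muscle is no further evidence. Gng5, the second Gγ gene of epithelium by level, took 16.4% ± 1.73 of it in muscle and 23.4% ± 2.37 in epithelium. Gng10, although higher in muscle in CPM, took 41.4% ± 4.01 in muscle and 49.6% ± 4.06 in epithelium. The remaining Gγ genes (Gng3, Gng4, Gng13, Gngt1 and Gngt2) had at most 7.48 CPM in any library (Gng3, muscle replicate 3).

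**Figure D3:**
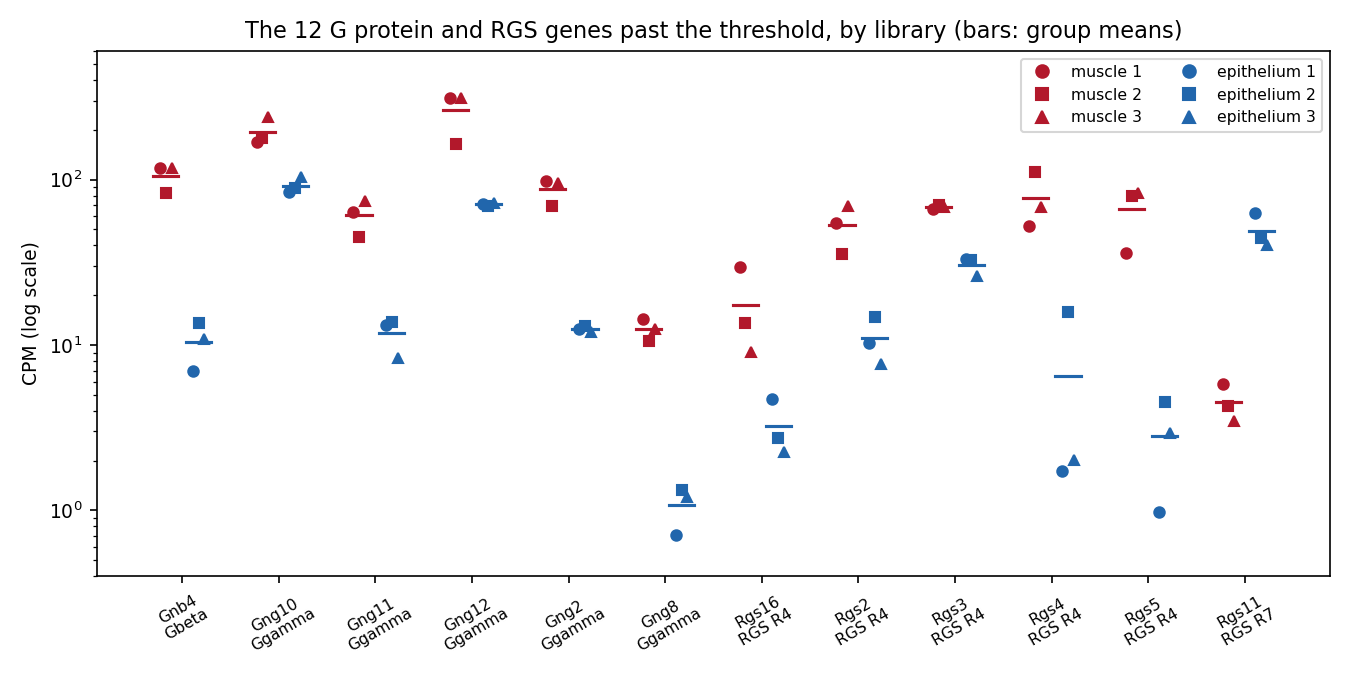
CPM on a log scale of the 12 genes past the threshold, with red symbols for the 3 muscle libraries, blue for the 3 epithelial libraries, a symbol shape per replicate number and bars at the group means. No gene's groups overlap; Rgs4 spans 1.73 to 15.8 CPM in epithelium, and Rgs11 is the 1 gene with the blue symbols on top.

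The RGS genes were divided by subfamily. The R4 subfamily holds small RGS proteins made of little more than the RGS domain, which act on Gi/o and Gq. Of 9 R4 genes 7 were tested. Of these 5 passed toward muscle (71.4%, against 6.58% of all tested genes) and none toward epithelium (against 4.11%). The median log2 fold change of the 7 was 2.42, against -0.10 over all tested genes. The summed level per kilobase of the 9 R4 genes was 75.6 ± 8.34 (SD, n = 3) in muscle and 12.4 ± 5.17 in epithelium. As a share of the summed RGS level, the R4 genes took 41.9%, 56.8% and 47.2% in the muscle replicates, in order, and 9.14%, 17.9% and 8.53% in the epithelial ones.

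Of the 9 R4 genes 8 lie on mouse chromosome 1, among them Rgs2, Rgs16, Rgs5 and Rgs4, which were all higher in muscle. Rgs5 (chr1:169655501-169695813) and Rgs4 (chr1:169741477-169747642) are adjacent genes with 45.7 kb between them, in RefSeq on GRCm38.p6, a release of the mm10 build named in the submitters' processing notes. Rgs2 (chr1:143999338-144004149) and Rgs16 (chr1:153740353-153745468, 42.7 kb after Rgs8) lie apart from them. The 250 bases before the start of each of these 4 genes are shown because they moved the same way, with matches to a TATA box (TATAAA) or a GC box (GGGCGG), on either strand, in capitals (CCGCCC is the GC box on the opposite strand). Sequences are from RefSeq (GRCm38.p6), 5′ to 3′ on the strand of the gene.
Rgs5, chr1:169655251-169655500, plus strand: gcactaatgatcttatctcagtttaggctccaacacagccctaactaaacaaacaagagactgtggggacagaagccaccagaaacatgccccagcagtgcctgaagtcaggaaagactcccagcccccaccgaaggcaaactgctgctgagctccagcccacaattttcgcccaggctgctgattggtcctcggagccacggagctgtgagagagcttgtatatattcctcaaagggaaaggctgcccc
Rgs4, chr1:169747643-169747892, minus strand: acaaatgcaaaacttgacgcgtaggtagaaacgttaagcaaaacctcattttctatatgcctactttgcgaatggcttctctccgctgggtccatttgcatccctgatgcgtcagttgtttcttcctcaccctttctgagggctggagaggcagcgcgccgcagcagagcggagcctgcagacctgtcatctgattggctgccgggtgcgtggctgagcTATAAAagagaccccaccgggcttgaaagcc
Rgs2, chr1:144004150-144004399, minus strand: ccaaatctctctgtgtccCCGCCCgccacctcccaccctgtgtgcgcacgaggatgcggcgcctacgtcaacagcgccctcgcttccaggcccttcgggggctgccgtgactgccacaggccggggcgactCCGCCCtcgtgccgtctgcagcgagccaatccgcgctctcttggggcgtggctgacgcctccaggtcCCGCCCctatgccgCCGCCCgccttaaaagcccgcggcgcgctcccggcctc
Rgs16, chr1:153740103-153740352, plus strand: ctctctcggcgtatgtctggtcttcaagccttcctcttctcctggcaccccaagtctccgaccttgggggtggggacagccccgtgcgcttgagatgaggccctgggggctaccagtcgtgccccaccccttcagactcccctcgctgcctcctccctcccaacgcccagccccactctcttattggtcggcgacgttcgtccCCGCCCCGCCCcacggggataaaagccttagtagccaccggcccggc

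The 4 windows differed in these exact letters, and near matches to either box were not counted. The Rgs4 window held a TATA box 31 bases before the start and no GC box. The windows of Rgs2 and Rgs16 held 4 and 2 GC boxes, the latter overlapping, and no TATA box, and that of Rgs5 held neither. Of 32851 RefSeq windows of the same length, 12.4% held a TATA box and 32.7% a GC box. The CArG box, the site of serum response factor in front of many smooth muscle genes, was in 1.47% of all windows and in none of the windows of the 39 members that had one in the table. A match or its lack describes these windows and not the binding of a factor.

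Rgs5, a gene known from pericytes and arterial smooth muscle, had 36.2, 80.03 and 82.9 CPM in muscle replicates 1 to 3 and, in the same order, 0.985, 4.54 and 2.93 CPM in epithelium. Its log2 fold change of 4.60 ± 0.59 (SE, adjusted p = 0.00161, edgeR) was the largest of the members, and it passed in all 17 alternatives. Summed over 6 pericyte markers, CPM ranged from 1096 to 1314 in muscle and from 135 to 244 in epithelium. Of these markers Pdgfrb (755, 536 and 696 CPM in muscle) and Cspg4 (174, 292 and 286 CPM) were called higher in muscle, and both are also expressed by smooth muscle precursors and mesenchyme. Kcnj8 (log2 fold change 3.14, adjusted p = 0.0625, edgeR) and Abcc9 (2.64, adjusted p = 0.0709) were above epithelium in every muscle library and did not pass. Notch3 (log2 fold change 0.27) and Anpep (-0.04) had overlapping groups. The part of pericytes in the level of Rgs5 was not tested. Rgs5 was lowest in muscle replicate 1, where the pericyte markers summed to 1168 CPM. In that library Cspg4, Abcc9, Notch3 and Anpep also had their lowest muscle values, while Pdgfrb and Kcnj8 had their highest.

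Rgs4, its neighbour, acts on Gi/o and Gq and has been studied as a brake on contraction of airway muscle. It had 52.1, 111 and 68.3 CPM in muscle and 1.73, 15.8 and 2.03 CPM in epithelium. Epithelium replicate 2, a library rich in background counts, stood apart from the other epithelial libraries, and muscle replicate 2 was the highest muscle library. The log2 fold change was 3.61 ± 0.84 (adjusted p = 0.0259, edgeR). The call was lost in 5 of the 6 fits made without a single library, at an adjusted p of 0.078, 0.0861 and 0.0798 without muscle replicates 1 to 3 and 0.0851 and 0.118 without epithelium replicates 1 and 3. Without epithelium replicate 2 Rgs4 passed, at 5.34 in log2 (adjusted p = 0.000325). Rgs4 also missed the threshold with library size only (adjusted p = 0.0785), DESeq2 size factors (0.0522), no filter (0.0673) or the filter on average log2 CPM (0.0551). On the scale per kilobase Rgs4 had 26.2 ± 10.3 in muscle, second to Rgs19, with libraries that overlapped those of Rgs19 and Rgs12.

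Rgs2, which acts mainly on Gq, had 54.8, 35.5 and 69.01 CPM in muscle and 10.3, 14.8 and 7.70 CPM in epithelium. The lowest muscle library was well above the highest epithelial one. In log2 the change was 2.28 ± 0.35 (adjusted p = 0.0036, edgeR), a 4.86-fold difference that passed in all 17 alternatives. Rgs3, the R4 member with long isoforms, had 65.9, 70.1 and 68.4 CPM in muscle and 33.3, 32.4 and 25.99 in epithelium, and the libraries of each group were close together. The log2 fold change was 1.16 ± 0.22 (adjusted p = 0.00978), which did not pass without epithelium replicate 3 (adjusted p = 0.09) or without the 3 libraries with background counts (0.118).

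Rgs16, an inducible regulator of Gi/o and Gq signals, had 29.5, 13.6 and 9.02 CPM in muscle and 4.68, 2.74 and 2.25 CPM in epithelium. Muscle replicate 1 stood above the other muscle libraries. The log2 fold change of 2.42 ± 0.55 passed (adjusted p = 0.0227, edgeR), and it did not pass without muscle replicate 1 (1.81, adjusted p = 0.242), epithelium replicate 2 (adjusted p = 0.0636) or epithelium replicate 3 (0.119). Nor did it pass in limma-voom (adjusted p = 0.0961), without the libraries numbered 2 (0.0729) or without the 3 libraries with background counts (0.199). The antisense gene Gm28513 overlaps 10.1% of its exon bases. Rgs8, the gene before Rgs16 on the chromosome and named after its values were seen, also had its highest value in muscle replicate 1, with 30.3, 4.04 and 9.48 CPM in muscle and 1.60, 4.68 and 1.16 in epithelium (log2 fold change 2.57 ± 0.85, adjusted p = 0.097). Without muscle replicate 1 its log2 fold change was 1.47 (adjusted p = 0.719). It passed in 3 of 17 alternatives, without muscle replicate 2 (adjusted p = 0.0218), epithelium replicate 2 (0.0459) or both (0.0169). Muscle replicate 1 is the library with the skeletal muscle markers, and their part in both values was not tested. Rgs1, Rgs13 and Rgs18, known from blood and immune cells, had at most 2.40 CPM in a library, and Rgs1 and Rgs18 were not tested.

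Rgs11 was the exception in direction. It belongs to the R7 subfamily, whose proteins act on Gi/o, are stable only together with Gnb5 protein and are best known from neurons and retina. It had 5.82, 4.29 and 3.49 CPM in muscle replicates 1 to 3 and, in the same order, 62.5, 44.6 and 40.2 CPM in epithelium. Every epithelial library was several times above every muscle library. The difference in log2 was -3.44 ± 0.31 (SE, with an adjusted p of 0.000426 in edgeR), a 10.8-fold difference, and it passed in all 17 alternatives. Arhgdig, on the opposite strand, overlaps 6.87% of its exon bases. Per kilobase Rgs11 had the second-highest level of the RGS genes in epithelium, 24.4 ± 5.87, behind Rgs19 and with libraries overlapping those of Rgs12, and it took 1.45% ± 0.369 of the summed RGS level in muscle and 23.0% ± 3.77 in epithelium. Without division by length these shares were 0.79% and 13.95%.

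The R7 partner Gnb5 thus had its higher values in muscle, where Rgs11 was low. Of the other R7 genes, Rgs6 had 10.3, 8.69 and 12.8 CPM in muscle and 3.05, 5.15 and 4.73 CPM in epithelium. Muscle was above epithelium in every library, at a log2 fold change of 1.30 ± 0.49 that passed neither in edgeR (adjusted p = 0.151) nor in any of the 17 alternatives. Rgs9 had 27.9 CPM in epithelium replicate 2 and between 6.65 and 9.81 CPM in the other 5 libraries. Rgs7 had at most 2.87 CPM, and the sign of its fold change turned in 5 of the alternatives.

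None of the 3 R12 and 3 RZ genes passed in edgeR, DESeq2 or limma-voom, and none had an unadjusted p under 0.05 in edgeR. Rgs19, an RZ protein that acts on Gi, had 123, 76.2 and 115 CPM in muscle and 99.6, 71.2 and 109 CPM in epithelium, with overlapping groups (log2 fold change 0.17 ± 0.28, adjusted p = 0.899). Per kilobase it had the highest mean level of the RGS genes in both populations, 48.97 ± 11.7 in muscle and 43.7 ± 9.21 in epithelium. Rgs12, a large protein with a GoLoco motif that binds inactive Gαi, had 164, 75.98 and 136 CPM in muscle and 148, 104 and 91.6 in epithelium (log2 fold change 0.13 ± 0.33, adjusted p = 0.933). With library size only the log2 fold changes of both turned negative, -0.11 for Rgs19 and -0.17 for Rgs12. Rgs10, a small protein abundant in immune cells, had 3.04, 6.74 and 6.12 CPM in muscle and 1.10, 1.87 and 0.789 in epithelium, without overlap (log2 fold change 2.08 ± 0.95, adjusted p = 0.251). With a covariate for background counts Rgs10 passed (adjusted p = 0.0476), and it did not pass in its other alternatives (up to 0.707). Rgs14 of the R12 and Rgs20 of the RZ subfamily had at most 1.39 and 2.54 CPM. Summed over 6 immune markers the range was 3.42 to 41.2 CPM in muscle and 3.74 to 30.2 in epithelium.

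**Figure D4:**
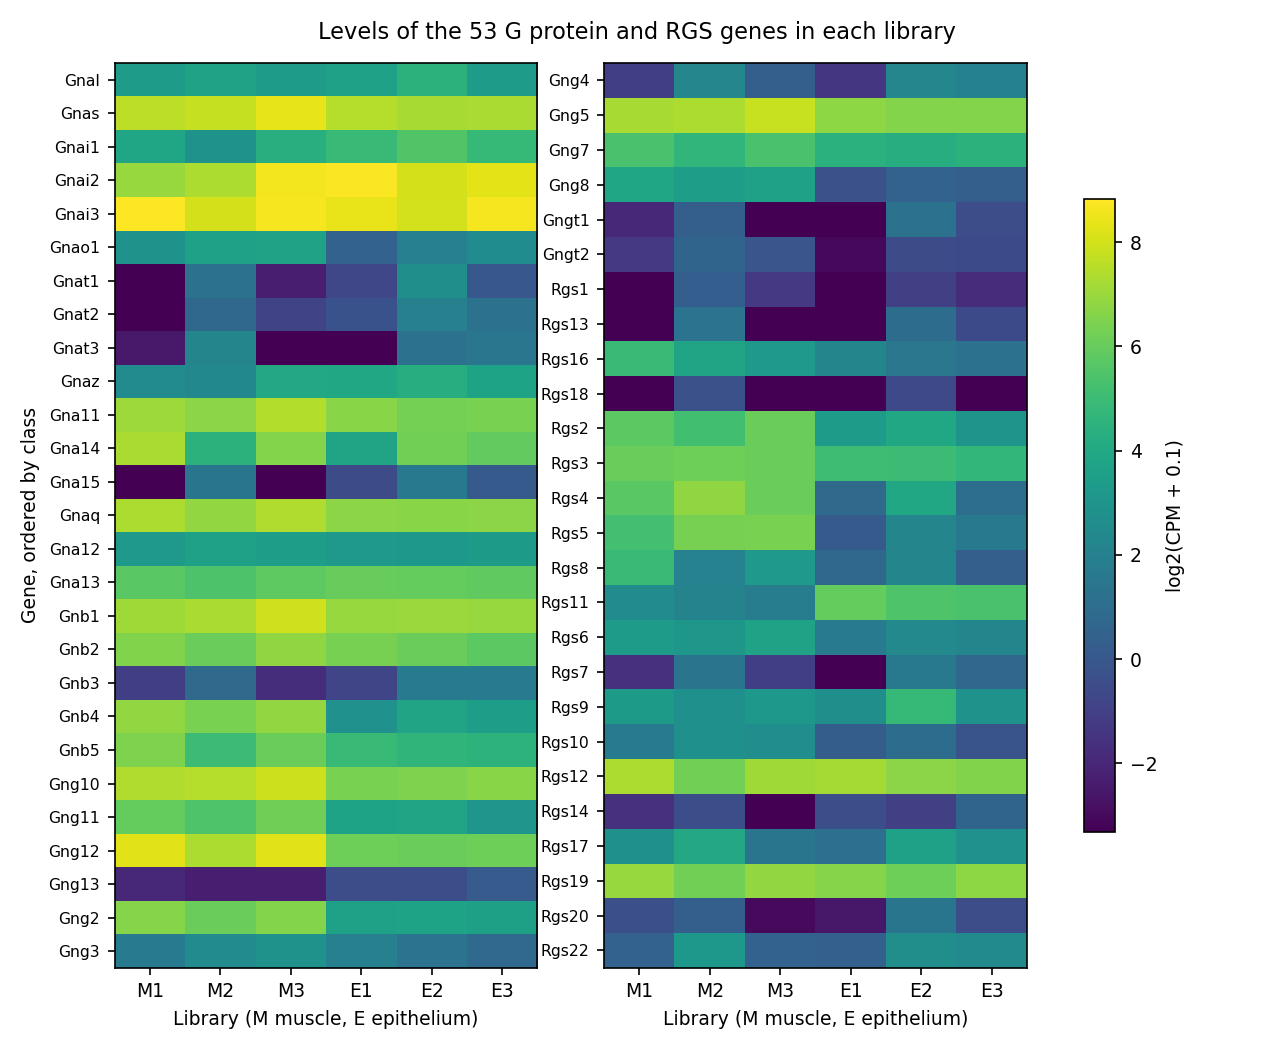
Heat map of log2(CPM + 0.1) for all 53 genes (rows, ordered by class) in the 6 libraries (columns, M1 to M3 muscle and E1 to E3 epithelium), with yellow for high and dark blue for low levels. Gnai2 and Gnai3 are bright in every library, and genes such as Gnat1, Rgs13 and Rgs18 are dark except in M2, E2 or E3.

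Some members had their highest values in the libraries with background counts. In 12 of the 53 genes the 3 highest libraries were muscle replicate 2 and epithelium replicates 2 and 3. They were Gna15, Gnat1, Gnat2, Gnat3, Gnb3, Gng4, Gngt1, Rgs7, Rgs13, Rgs17, Rgs18 and Rgs22, and 10 of the 12 had an average log2 CPM under 2 or were not tested. The libraries with background counts had counts in 21811 to 22154 genes, and the others in 16979 to 18217. The share of all genes with this order of libraries was not computed, so the order cannot be called particular to these members. Several of the 12 are genes of vision or taste (the transducin genes Gnat1 and Gnat2, gustducin Gnat3, and Gngt1). None of the 12 passed the threshold. Rgs17, an RZ gene of the brain, reached the highest value among them, with 6.84, 16.3 and 2.58 CPM in muscle and 2.10, 12.4 and 6.95 CPM in epithelium. Its log2 fold change of 0.27 ± 0.80 (adjusted p = 0.942, edgeR) changed sign without muscle replicate 2 (-0.58) or epithelium replicate 1 (-0.16).

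Members lie side by side at 10 places in the genome, without another protein-coding gene between them. At 1 of the 10, Rgs5 and Rgs4, both genes passed. At 3 of them 1 gene passed and its neighbour did not, namely Rgs2 next to Rgs13, Rgs16 next to Rgs8, and Gng11 next to Gngt1. Gng11 had 44.9 to 73.8 CPM in muscle, while Gngt1, which lies 6.55 kb away and encodes the rod photoreceptor γ subunit, had at most 2.21 CPM in any library. Gnaq and Gna14, and Gna11 and Gna15, are adjacent Gq/11 pairs in which neither gene passed.

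Effectors and regulators of G proteins outside the families were taken from a list of 49 genes (phospholipase C beta, adenylyl cyclase, exchange factor, GIRK channel, receptor kinase, arrestin and similar genes), of which 48 were in the table and 47 were tested. Of these, edgeR called 5 higher in muscle and 2 higher in epithelium (14.9%, against 10.7% of all tested genes), and the median log2 fold change was 0.10. Higher in muscle was Plcb1, a phospholipase C activated by Gq, with 37.5, 19.2 and 32.7 CPM in muscle and 8.51, 9.76 and 6.38 CPM in epithelium (log2 fold change 1.86 ± 0.33, adjusted p = 0.00781). The groups were apart in every library, and Plcb1 passed in all 17 alternatives.

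Of 9 adenylyl cyclase genes tested, 2 were called higher in muscle and 1 higher in epithelium, against 6.58% and 4.11% of all tested genes. The others did not pass. Adcy1 (46.6 ± 26.2 CPM in muscle and 11.8 ± 4.19 in epithelium, SD, n = 3, log2 fold change 1.99 ± 0.47, adjusted p = 0.027, edgeR) and Adcy4 (log2 fold change 1.94 ± 0.50, adjusted p = 0.0391) were higher in muscle. Adcy7 was higher in epithelium, with 1.25, 7.79 and 5.61 CPM in muscle and 39.8, 25.5 and 25.8 CPM in epithelium (log2 fold change -2.64 ± 0.58, adjusted p = 0.0204). Trio (log2 fold change 1.11 ± 0.29, adjusted p = 0.0403) and Kalrn (log2 fold change 0.99 ± 0.23, adjusted p = 0.0271), guanine nucleotide exchange factors, were higher in muscle by small amounts. Rasd1, a small GTPase that affects Gi signalling, was higher in epithelium (log2 fold change -1.76 ± 0.36, adjusted p = 0.0153). Without muscle replicate 1, muscle replicate 3 or epithelium replicate 1 the calls of Adcy1 (adjusted p from 0.0541 to 0.0808), Adcy4 (0.0619 to 0.135), Trio (0.0619 to 0.17), Kalrn (0.0577 to 0.125) and Rasd1 (0.057 to 0.0642) were lost. Without epithelium replicate 3 those of Adcy1 (0.0997), Adcy4 (0.162), Trio (0.141) and Kalrn (0.131) were lost, and Kalrn also lost its call without muscle replicate 2 (0.0533). Adcy7 lost its call without muscle replicate 3 (adjusted p = 0.0531) and with the replicate number as a block (0.075). With that block Adcy1 (0.1) and Adcy4 (0.0512) did not pass either. With library size only Plcb1 was the 1 effector called higher in muscle.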

How the data were processed

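The authors deposited 1 table of raw counts, whole numbers, with gene symbols in rows and a column for each library. Per the submitters' processing notes, reads were handled against mm10, and Trim Galore, Bowtie2, Cufflinks and DESeq are named without roles. The counting program, annotation and filters are not given in the sources used here. Per the labels' protocols, RNA was taken with Trizol, cDNA was made with SMART-Seq v4 and libraries with Nextera XT, which mark neither strand nor molecule, so counts include PCR copies and overlapping genes share reads.

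Genes were filtered with filterByExpr, scaled with edgeR's TMM factors and compared with edgeR 4.0.16 (quasi-likelihood test, robust, two-sided, no covariate, R 4.3.3), with p-values adjusted by Benjamini-Hochberg across the 19375 genes tested and called under 0.05. CPM uses TMM-scaled library sizes. Standard errors were derived from the test statistic. Exon lengths are unions of GENCODE M21 basic exons (mm10), and the authors' gene models may differ. The procedure was tested on simulated data. Alternatives were other scalings (library size only, DESeq2 size factors), DESeq2 1.42.0, limma-voom (limma 3.58.1), 2 other filters, a replicate block and a covariate for background counts. Others were a threshold of 0.01, a fit without the libraries numbered 2 and fits leaving out each library. A fit on the 3 libraries with few background counts was added later. The libraries numbered 2 were set apart from the other 4 by reading the identifier row of the file header as dates. The header does not call that row a date, and its row named Date is the same for all 6. It thus gives no difference in date between the libraries. Members, lists and rules were chosen with earlier results of these data known. Genes named were those past the threshold, those whose groups did not overlap and whose average log2 CPM was 2 or more, and a list of 32 genes of interest. The smallest p of an exact permutation test of 3 against 3 is 0.10, and p-values of genes are therefore edgeR's.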

Additional observations from a re-analysis of the deposited data

How the results depend on the processing

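Of the 12 genes called, 8 kept their call in all 17 alternatives (Gnb4, Gng2, Gng8, Gng11, Gng12, Rgs2, Rgs5 and Rgs11). Members higher in muscle numbered between 7 and 14 when any 1 library was left out, and between 1 and 2 members were higher in epithelium. The second one, Gnai1, was added with library size only, DESeq2 size factors, DESeq2, no filter, the filter at an average log2 CPM of 2 and the background covariate, each giving 2. With that covariate 15 members were higher in muscle, and without the libraries numbered 2, whose header identifiers differ, 13 were. Those 2 libraries alone allow no test. Calls over all genes numbered 3346 with DESeq2 and 983 at an adjusted p under 0.01, and 1169 to 2573 without 1 library. Effector genes higher in muscle numbered 1 with library size only or at 0.01, 2 with DESeq2 size factors or the log2 CPM filter, 3 with the replicate block and 1 to 6 without 1 library. Those higher in epithelium numbered 1 with the block, 0 at 0.01, 1 with the 3 low-background libraries and 0 to 3 without 1 library.

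With a replicate block, edgeR called 12 members higher in muscle and 1 in epithelium, with all 12 of the main calls among them and Gng5 added (adjusted p = 0.0371). Deviations from the group means correlated across genes at 0.57, 0.66 and -0.42 for the libraries numbered 1, 2 and 3. Some libraries of unlike number correlated too, at 0.66 for muscle 3 with epithelium 1 and 0.41 for muscle 2 with epithelium 3. The remaining unlike pairs ranged from -0.76 to -0.25. Every positive correlation joined libraries that were alike in background counts, both high or both low. Every negative one joined a library with high to a library with low background counts. The part of background counts in these correlations was not tested. The identifiers in the file header match within numbers 1 and 2 but not within number 3, so the libraries were taken to share only a number as a whole. The block changed no other member's call.

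Members at low counts outside the rule for named genes were not followed through the alternatives. Among those that were, these fold changes turned sign: Gna12 (-0.00548 with library size only, -0.0505 with the low-background libraries), Gna15 (from -8.57 to 0.17 without 1 library), Gnai3 (-0.12 with library size only, -0.0197 with the log2 CPM filter, from -0.0485 to 0.36 without 1 library) and Rgs19 (-0.11, -0.0103 and from -0.051 to 0.36 in the same settings). Rgs12 turned with library size only (-0.17), DESeq2 size factors (-0.00676), DESeq2 (-0.00676), the log2 CPM filter (-0.0696), the background covariate (-0.00934), the low-background libraries (-0.16) and without 1 library (from -0.15 to 0.40). Rgs17 turned with the fit without the libraries numbered 2 (-0.0219) and without 1 library (from -0.58 to 0.97). Rgs7 turned under limma-voom (1.96), the block (0.33), the covariate (1.52), the low-background libraries (6.54) and without 1 library (from -2.24 to 0.54). The causes were not tested.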
